A study of Homo sapiens with 8 samples.

Results

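AP-1 is the pair of proteins, one from the FOS family and one from the JUN family or both from the JUN family, that binds DNA through a basic leucine zipper. The 7 genes described here encode its classical subunits: FOS, FOSB, FOSL1 and FOSL2 of the FOS family, and JUN, JUNB and JUND of the JUN family. They were taken by gene symbol from the transcript identifiers of the deposited counts, 7 of the 15380 genes with a read. Each gene stands on the 3′ UTR segment with its highest summed total count.

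FOS and JUN are the textbook immediate-early genes: growth factors, cytokines and stress switch them on through MAP kinases and factors already bound at their promoters, with no new protein needed. Their mRNAs carry AU-rich elements in the 3′ UTR, short runs of A and U that recruit deadenylases, so the transcripts disappear soon after transcription stops. In monocytic cells AP-1 acts beside NF-kB on inflammatory genes, and sustained JUN and FOS expression accompanies differentiation towards macrophages.

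The cells were THP-1, an established human line derived from acute monocytic leukaemia, and all 8 libraries came from this line. For 7 of them, cells were fed 30 µM 4-thiouridine (4sU), a uridine analogue that enters new RNA, for 12 h with fresh medium every 3 h, were washed in cold saline, and were moved to warm medium with 3 mM uridine. They were harvested 0, 20 and 40 min and 1, 2, 8 and 12 h into this chase, 1 library per time, and 1 further library came from cells given no 4sU. In this method (SLAM-seq), iodoacetamide makes 4sU read as C in place of T, and a read with such changes, called nascent by the authors, is called labelled here. The labels do not say whether the times were separate cultures.

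Gene counts per library summed to between 8301033 (12 h) and 11224018 (8 h) over the chase, against 2916043 without 4sU. The labelled part of all gene counts was 30.6% at 0 h and 27.1%, 10.8% and 5.53% after 2, 8 and 12 h, against 0.0121% without 4sU. Levels are counts scaled to a common sum of gene counts (CPM). Reads come from the 3′ end of each transcript only, so genes are compared with no division by length. All 12 monocytic marker genes on the list had reads in these libraries, summing to 3416 to 3971 CPM. That sum hides a library that stands apart: CEBPA had 231 to 466 CPM in the chase, against 2587 CPM without 4sU, while TYROBP had 425 to 549 CPM in the chase, against 32.9 CPM without 4sU, and CD14 had 18.8 to 70.1 CPM, against 2.74 CPM without 4sU. The part of this in the comparisons with the library without 4sU was not tested. Summed levels of the other marker lists were 0.838 to 7.20 CPM (T and B lymphoid, with CD3E at 0), 0 to 1.45 CPM (erythroid, with HBB at 0), 0 to 1.68 CPM (epithelial) and 2.40 to 4.45 CPM (fibroblast). With 1 library per condition there is no test between conditions. Adjusted p-values below measure the scatter of the 7 chase libraries about a fitted line or curve, and intervals in brackets are 95% intervals that cover counting error only.

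The promoters of the 3 genes that differed most over the chase are shown first, because these genes were high together. Each is 300 bases of RefSeq sequence on GRCh38.p14 in the direction of the gene, from 250 bases before to 50 bases after the start: FOS at chr14:75278578-75278877 on the plus strand, FOSB at chr19:45467746-45468045 on the plus strand and JUN at chr1:58783998-58784297 on the minus strand. Capitals mark TGACG, the first bases of the cAMP response element bound by CREB and ATF factors, and in JUN also TGACATCA, the element of its own promoter that JUN and ATF2 bind.
FOS: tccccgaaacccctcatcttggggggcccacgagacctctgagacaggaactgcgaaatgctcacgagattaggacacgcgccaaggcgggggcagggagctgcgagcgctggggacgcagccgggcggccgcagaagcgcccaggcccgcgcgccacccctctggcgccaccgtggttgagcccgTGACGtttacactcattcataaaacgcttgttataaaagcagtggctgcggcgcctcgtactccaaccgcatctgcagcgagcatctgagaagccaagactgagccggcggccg
FOSB: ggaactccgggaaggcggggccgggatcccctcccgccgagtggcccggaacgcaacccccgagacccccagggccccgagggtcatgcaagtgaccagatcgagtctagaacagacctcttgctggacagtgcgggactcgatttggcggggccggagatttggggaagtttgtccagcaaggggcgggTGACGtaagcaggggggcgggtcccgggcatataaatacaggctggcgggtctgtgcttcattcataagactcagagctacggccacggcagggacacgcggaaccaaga
JUN: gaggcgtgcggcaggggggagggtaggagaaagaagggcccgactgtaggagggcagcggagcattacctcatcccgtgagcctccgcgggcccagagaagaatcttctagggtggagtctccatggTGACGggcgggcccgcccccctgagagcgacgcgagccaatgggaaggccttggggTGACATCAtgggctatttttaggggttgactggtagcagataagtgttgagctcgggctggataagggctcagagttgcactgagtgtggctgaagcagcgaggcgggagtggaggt

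TGACG, searched on both strands, begins 64 bases before the start in FOS, 60 bases before it in FOSB and 123 bases before it in JUN, where TGACATCA begins 67 bases before the start. TGACG was present in all 6 members with a promoter in the table (the 3 above, FOSL2, JUNB and JUND), against 24.6% of 35116 promoters of the same length. The complete palindrome TGACGTCA, which contains TGACG, was in JUND alone of the 6, beginning 200 bases before its start, against 1.85% of promoters. TGACTCA, the classical AP-1 element, was in FOSL2 alone, beginning at base 5 after the start, against 4.95% of promoters. TGACATCA was in JUN alone, against 2.61%, and the CArG box, the site of serum response factor, was in none of the 6 windows, against 1.29%. Bases more than 250 before the start were not searched, so sites further upstream, in FOS as in the others, would be missed. A match is a stretch of letters and not a measured binding site.

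The 3′ UTRs are shown as windows of at most 30 bases, because the counted reads come from this end of the RNA and the AU-rich element lies there. For each member the window holds as many copies of ATTTA, the core of the AU-rich element, as any window of its length in the 3′ UTR of the counted transcript (GENCODE 29, written as DNA), with ATTTA in capitals.
FOS: tgtgtttttaATTTATTTAttaagatggat
FOSB: cctgctggagtgATTTAtactgtgaaatga
FOSL1: agggcagctgctATTTAttttcctaaagag
FOSL2: attgacATTTAttttattATTTAttttaaa
JUN: tccagaaaggatATTTAagaaaatacaata
JUNB: atatatttgtgtATTTAacagggaggggaa
JUND: cgattctgccctATTTAtgtttctactcgg

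ATTTA occurred 5 times in the 806 bases of the FOS 3′ UTR and 9 times in the 4864 bases of FOSL2. It occurred 3 times each in FOSB (2166 bases) and JUN (1287 bases), 2 times in JUNB (500 bases) and 1 time each in FOSL1 (837 bases) and JUND (681 bases). In the last 300 bases, 5 of 7 members held ATTTA, against 49.6% of 8023 genes. The longer form TATTTAT was there in 4 of 7 members (FOS, FOSL1, JUN and JUND), against 11.5% of genes. The nonamer TTATTTATT was there in FOS alone, against 1.89% of genes. FOSB and FOSL2 held ATTTA only further from the end. Over the whole 3′ UTR, TATTTAT was in 6 of 7 members, and TTATTTATT in 2, FOS and FOSL2. No share of genes was computed for whole 3′ UTRs, where longer sequence holds more matches. These 2 counts are thus not comparable with the shares for the last 300 bases. The T content of the last 300 bases, which sets how many bases a read can show as converted, was 43.7% in FOS, 39.7% in JUND, 36.7% in FOSL2, 31.3% in JUN and in JUNB, 31.0% in FOSB and 26.7% in FOSL1, against a median of 32.3% over genes.

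FOS, FOSB and JUN were many times higher in the first hour of chase than at 0 h. FOS was highest at 40 min (34.3-fold over 0 h), and FOSB and JUN at 1 h (27.5-fold and 8.40-fold). The other members, JUNB, JUND, FOSL1 and FOSL2, stayed within 2-fold of 0 h up to 2 h. FOSL2 and JUNB were highest at 12 h, at 3.82-fold and 1.78-fold of 0 h. In bulk RNA, fewer cells with a transcript and less of it per cell cannot be told apart.

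**Figure D1:**
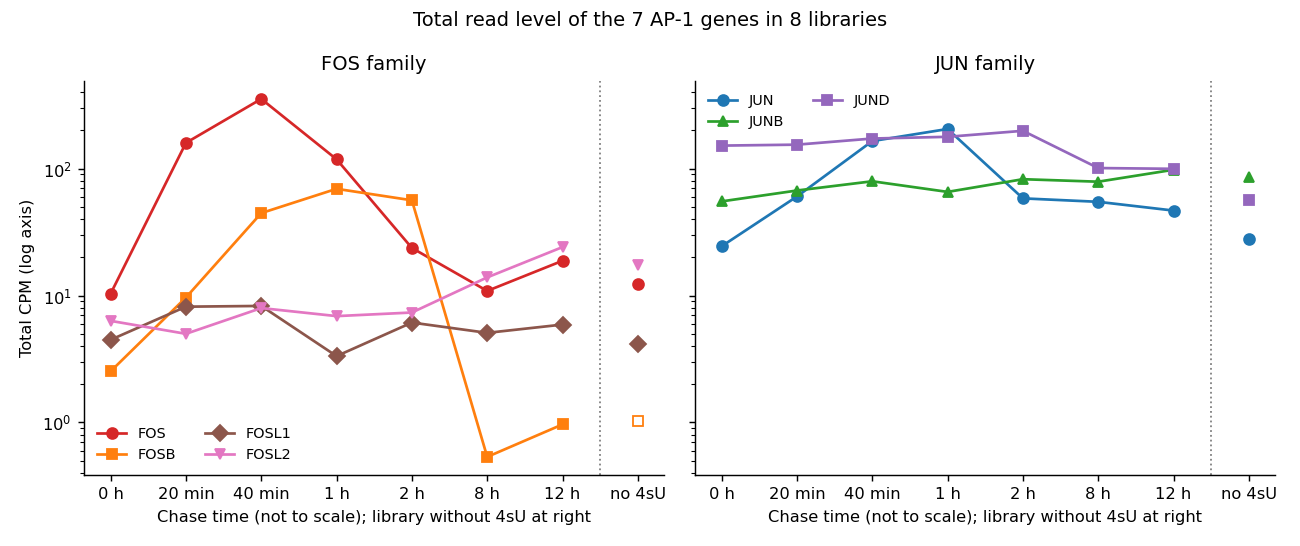
Total level of each AP-1 gene (CPM, log axis) at the 7 chase times and, at right, without 4sU; each point is 1 library, and the open FOSB point stands at 1.03 CPM, the level of 3 reads, because no FOSB read was counted there. FOS peaks at 355 CPM at 40 min and FOSB and JUN at 69.4 and 205 CPM at 1 h, while JUNB and JUND vary less than 2-fold over the chase.

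FOS encodes the founding subunit of the family (ENST00000303562, 3′ UTR segment starting at chr14:75748128 on hg19, plus strand). It had 10.3 CPM at 0 h, 159.7 after 20 min, 355 after 40 min, 119 after 1 h, 23.7 after 2 h, 10.9 after 8 h and 18.8 after 12 h, against 12.3 CPM without 4sU. The libraries of 20 min, 40 min and 1 h stood far above the other libraries, and those of 0 h, 8 h and no 4sU were alike. The fold over 0 h was 15.5 after 20 min (12.5 to 19.4) and 34.3 after 40 min (27.8 to 42.8), from 90 reads at 0 h, 1408 after 20 min and 3384 after 40 min. Among 9295 genes with a mean of at least 50 reads, FOS had the highest fold of all at 20 min and ranked 2 at 40 min. It was then 2.99-fold lower at 1 h than at 40 min (2.79 to 3.21), the lowest ratio of these 9295 genes for that step, and 5.00-fold lower at 2 h than at 1 h (4.31 to 5.82). These steps equal a halving of the total level every 12.7 min (11.9 to 13.5) between 40 min and 1 h and every 25.8 min (23.6 to 28.5) between 1 and 2 h, which is a net loss since new RNA may have been made meanwhile.

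FOSB encodes a close relative of FOS and also an immediate-early gene (ENST00000353609, segment at chr19:45976271, plus strand, with the same counts for 5 further transcripts). It had 2.53 CPM at 0 h, 9.64 after 20 min, 44.6 after 40 min, 69.4 after 1 h, 56.3 after 2 h, 0.535 after 8 h and 0.964 after 12 h, and no read without 4sU, where 3 reads would be 1.03 CPM. FOSB thus stayed high at 2 h, when FOS had come down, and was close to the limit of counting at 8 and 12 h, with 6 and 8 reads. Over 0 h the fold was 3.82 after 20 min (2.37 to 6.41), 17.7 after 40 min (11.5 to 28.5), 27.5 after 1 h (18.0 to 44.2) and 22.3 after 2 h (14.6 to 35.9). At 1 and 2 h this was the highest fold of the 9295 genes. At 8 h FOSB was 105-fold lower than at 2 h (48.1 to 288). Its largest over its smallest chase level, 130-fold, was the widest range of 9412 genes on the log2 scale with the 0.1 CPM pseudocount, where the median gene spanned 0.63 and FOSB 6.77. These genes had a chase mean of at least 50 reads, which FOSB reached only through its libraries of 40 min, 1 h and 2 h. The minimum is thus not independent of its range, and the rank is a description.

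JUN encodes the main transactivating partner of FOS (ENST00000371222, segment at chr1:59246465, minus strand). It had 24.5 CPM at 0 h, 60.4 after 20 min, 165 after 40 min, 205 after 1 h, 58.3 after 2 h, 54.8 after 8 h and 46.7 after 12 h, against 28.1 CPM without 4sU. The 40 min and 1 h libraries were the highest, and all later libraries stayed above both 0 h and no 4sU. Over 0 h the fold was 2.47 at 20 min (2.10 to 2.91), 6.75 at 40 min (5.85 to 7.82) and 8.40 at 1 h (7.29 to 9.73), and JUN ranked 8 of 9295 genes at each of these times. At 2 h JUN was 3.52-fold lower than at 1 h (3.20 to 3.89), a net halving every 33.0 min (30.6 to 35.8). From 2 to 8 h the level hardly differed, with a ratio of 0.939 (0.835 to 1.06).

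FOS, FOSB and JUN were past 2-fold over 0 h at 20 min, where 0.0968% of the 9295 genes with a mean of at least 50 reads were. FOSB reached that minimum only through its libraries of 40 min, 1 h and 2 h, with 426, 625 and 506 reads, so the minimum is not independent of its level and the count is a description. The same 3 were past 2-fold at 40 min (0.258% of genes), 1 h (0.646%) and 2 h (1.51%), and all these comparisons share the 0 h library. FOSL1, with a mean of 49.1 reads over the 8 libraries, missed the minimum of 50 and is not in these counts. Against the library without 4sU, a comparison added after the data were seen, FOS was 28.7-fold and JUN 5.87-fold higher at 40 min, and FOSB at least 43.4-fold higher. The 3 genes were thus higher at 40 min than in either library.

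**Figure D2:**
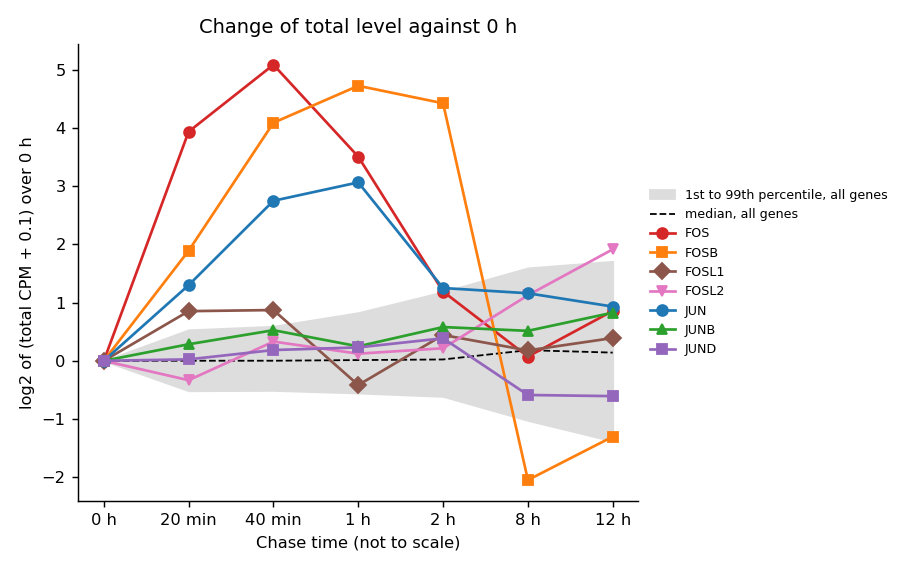
Difference of the total level from 0 h on the log2 scale (CPM + 0.1) for the 7 genes, with the median (dashed) and the 1st to 99th percentile (grey) of 9295 genes. FOS, FOSB and JUN lie above the grey band from 20 min to 2 h, with FOS close to its edge at 2 h. FOSL1 lies above it at 20 and 40 min, FOSB lies below it at 8 h, and FOSL2 lies above it at 12 h.

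FOSL2 encodes a FOS relative with a weaker activating domain (ENST00000264716, segment at chr2:28635316, plus strand). It had 6.31 CPM at 0 h, 4.99 after 20 min, 7.96 after 40 min, 6.88 after 1 h, 7.35 after 2 h, 13.9 after 8 h and 24.1 after 12 h, against 17.5 CPM without 4sU. The 5 libraries up to 2 h were low and alike, and the 8 h, 12 h and no-4sU libraries were higher. The fold over 0 h was 2.20 at 8 h (1.61 to 3.05) and 3.82 at 12 h (2.82 to 5.24). At 12 h FOSL2 ranked 55 of 9295 genes.

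FOSL1 (ENST00000448083, segment at chr11:65659520, minus strand), another FOS relative without a strong activating domain, was the lowest member on average over the chase. It had 4.48 CPM at 0 h, 8.17 after 20 min, 8.28 after 40 min, 3.33 after 1 h, 6.12 after 2 h, 5.08 after 8 h and 5.90 after 12 h, against 4.12 CPM without 4sU. The 20 and 40 min libraries were the highest, from 72 and 79 reads. Its fold over 0 h was 1.82 at 20 min (1.22 to 2.77) and 1.85 at 40 min (1.24 to 2.79), and 1 h stood at 0.402 of 40 min (0.255 to 0.620).

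JUNB encodes a JUN relative that can restrain JUN and is itself inducible (ENST00000302754, segment at chr19:12903630, plus strand). It had 55.2 CPM at 0 h, 67.3 after 20 min, 79.5 after 40 min, 65.6 after 1 h, 82.6 after 2 h, 78.9 after 8 h and 98.1 after 12 h, against 85.4 CPM without 4sU. All later libraries were above 0 h, by 1.19-fold (1.05 to 1.34) at the least, at 1 h, and by 1.78-fold (1.58 to 1.99) at the most, at 12 h. At 40 min the fold of 1.44 (1.28 to 1.62) ranked 135 of 9295 genes.

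JUND encodes the constitutive JUN protein of most resting cells (ENST00000252818, segment at chr19:18390563, minus strand). It had 152 CPM at 0 h, 155 after 20 min, 173 after 40 min, 178 after 1 h, 199 after 2 h, 101 after 8 h and 99.7 after 12 h, against 56.2 CPM without 4sU. The first 5 libraries were high, the 8 and 12 h libraries lower, and the library without 4sU lowest. At 8 h JUND was at 0.665 of its 0 h level (0.614 to 0.721) and at 0.509 of its 2 h level (0.472 to 0.548).

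At 8 h, 2 members were past 2-fold over 0 h (FOSL2 and JUN at 2.24-fold), where 7.84% of genes were, and FOSB was past 2-fold lower, where 1.13% were. At 12 h, FOSL2 was past 2-fold higher (8.61% of genes) and FOSB past 2-fold lower at 0.382 of 0 h (2.59% of genes). The median gene itself stood 0.18 higher on the log2 scale at 8 h than at 0 h and 0.14 higher at 12 h. With TMM-scaled levels or DESeq2 size factors, neither FOSL2 nor JUN was past 2-fold at 8 h.

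The makeup of the AP-1 mRNA pool differed over the chase. Summed over the FOS family, levels were 23.6 CPM at 0 h, 183 after 20 min, 416 after 40 min, 198 after 1 h, 93.5 after 2 h, 30.4 after 8 h and 49.8 after 12 h, against 34.0 CPM without 4sU. FOS was the most abundant of the 4 from 0 h to 1 h, with 85.3% of the sum at 40 min, FOSB at 2 h with 60.2%, and FOSL2 at 8 h with 45.7%, at 12 h with 48.4% and without 4sU with 51.5%. The JUN family summed to 232 CPM at 0 h, 282 after 20 min, 417 after 40 min, 449 after 1 h, 339.7 after 2 h, 235 after 8 h and 245 after 12 h, against 169.8 CPM without 4sU. JUND led this sum in 6 of the 7 chase libraries, JUN led at 1 h with 45.7%, and JUNB led without 4sU with 50.3%. At 40 min the FOS and JUN families were thus nearly equal in tags, while at 0 h and at 8 h the JUN family held many times more.

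Whether total levels changed over the chase was tested in edgeR by a quasi-likelihood test with Benjamini-Hochberg adjustment over 10643 genes, on a curve in time of any shape. FOS (adjusted p = 8.0e-07), FOSB (2.8e-07), JUN (1.5e-05), JUND (7.8e-05), FOSL2 (0.00015) and JUNB (0.0473) changed, 6 of 7 members, against 48.4% of genes. FOSB ranked 27, FOS 54 and JUN 338 of the 10643 genes by p. FOSL1 did not pass (adjusted p = 0.626). JUNB was not called without the 0 h library (0.346), without the 20 min library (0.0737), in DESeq2 (0.0934), with DESeq2 size factors (0.0639), with a curve of 2 degrees of freedom (0.0514) or with all segments summed (0.0730).

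A straight trend over the 12 h was called for 4 of 7 members by the same edgeR test. FOSL2 rose by 1.78 ± 0.20 log2 units over 12 h (SE, adjusted p = 3.9e-05), where 27.4% of genes rose. JUND fell by 1.04 ± 0.18 (0.0007), where 23.9% of genes fell. The fitted lines of FOS and FOSB also fell, by 3.96 ± 1.43 (0.0361) and 5.91 ± 2.03 (0.0287). For FOS, FOSB and JUND the line runs through a peak within the chase and is not the difference between 0 and 12 h. FOS had 18.8 CPM at 12 h against 10.3 CPM at 0 h, and FOSB had 0.964 CPM against 2.53 CPM. JUND had 99.7 CPM at 12 h against 152 CPM at 0 h, and was highest at 2 h with 199 CPM. JUNB (0.35 ± 0.16, adjusted p = 0.0838), JUN (-1.39 ± 0.81, 0.169) and FOSL1 (-0.31 ± 0.41, 0.542) were not called. With library totals alone in place of TMM, the calls over all genes split into 3822 higher and 1797 lower, against 2919 higher and 2544 lower.

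The calls of the FOS and FOSB trends were lost without single libraries, while the slopes kept their direction. Leaving out 1 library at a time, the slope of FOS lay between -0.54 (without 12 h) and -0.25 log2 units per hour (without 40 min), against -0.33, and that of FOSB between -0.60 (without 0 h) and -0.33 (without 8 h), against -0.49. FOS was not called without the 20 min (adjusted p = 0.0592), 40 min (0.0587), 1 h (0.0539), 8 h (0.140) or 12 h library (0.0781), or in DESeq2 (0.0507). FOSB was not called without the 1 h (0.0503), 8 h (0.155) or 12 h library (0.202), or on an axis of log2(hours + 1) (0.189). JUN was called without the 0 h library (0.0271), and JUNB without the 40 min (0.0467) or 8 h library (0.0463) or with library totals alone (0.0187). The calls of FOSL2 and JUND were kept under all settings tried.

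At the end of the pulse, the question is how each level compared with cells that never received 4sU. JUND had 152 CPM at 0 h against 56.2 CPM without 4sU, 2.70-fold (2.30 to 3.20), and FOSB was at least 2.45-fold higher at 0 h. FOSL2 had 6.31 CPM at 0 h against 17.5 CPM without 4sU, a ratio of 0.361 (0.242 to 0.539), and JUNB stood at 0.647 (0.554 to 0.757). FOS (0.837, 0.563 to 1.27), JUN (0.870, 0.671 to 1.14) and FOSL1 (1.09, 0.558 to 2.28) had intervals that include equality. FOSB and JUND, 2 of 6 members, were past 2-fold higher at 0 h, and FOSL2 past 2-fold lower, where 19.4% and 17.0% of all genes were, so such differences were common between these libraries.

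How long the label stayed in each mRNA is read from the share of the gene's reads that were labelled. At 0 h the share was 71.1% in FOS (60.6 to 80.2), 69.1% in FOSL2 (55.2 to 80.9), 58.2% in JUND (55.5 to 60.9), 51.8% in JUNB (47.2 to 56.3), 50.2% in JUN (43.3 to 57.1), 48.7% in FOSL1 (32.4 to 65.2) and 27.3% in FOSB (10.7 to 50.2), against a median of 44.5% over 9402 genes. FOS stood above 96.5% of these genes. The intervals of neighbours in this order overlapped, and those of JUND and JUNB did so only between 55.5% and 56.3%. No member had a labelled read without 4sU, which allows a share of up to 1.20% in JUNB, from 249 reads, up to 8.33% in FOS, from 36 reads, and up to 25% in FOSL1, from 12 reads, while FOSB had no read there at all.

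Labelled reads of FOS were not highest at the end of the pulse but well into the chase. They stood at 7.35 CPM at 0 h, 80.1 after 20 min, 162 after 40 min, 50.6 after 1 h, 7.24 after 2 h, 0.0891 after 8 h and 0.120 after 12 h, and no labelled read was counted without 4sU. The level at 2 h was back at that of 0 h (ratio 0.985, 0.686 to 1.41), and 1 labelled read each was left at 8 and 12 h. Over 0 h the labelled level was 22.1-fold at 40 min (17.2 to 28.8), and the unlabelled level was 64.5-fold (43.8 to 98.9). Of the 344 CPM by which the total at 40 min exceeded 0 h, labelled reads made up 45.0%.

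Labelled JUN and FOSB also stood higher in the first hour of chase than at 0 h. Labelled JUN reads stood at 12.3 CPM at 0 h, 21.4 after 20 min, 43.9 after 40 min, 53.3 after 1 h, 12.1 after 2 h, 0.802 after 8 h and 0.241 after 12 h. Labelled FOSB reads stood at 0.689 CPM at 0 h, 3.06 after 20 min, 6.81 after 40 min, 12.7 after 1 h and 8.35 after 2 h, with none at 8 and 12 h. Both were highest at 1 h, like the totals. Labelled reads made up 22.6% of the excess of JUN over 0 h at 1 h, and 17.9% of that of FOSB. A labelled level at least 2-fold over that of 0 h at 40 min was seen in 4 of 7 members (FOS, FOSB, JUN at 3.57-fold and FOSL1 at 2.07-fold from 43 and 19 reads), where 0.659% of 9402 genes showed it. How a read was called labelled is not stated, and the source of labelled reads gained after the wash was not tested.

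**Figure D3:**
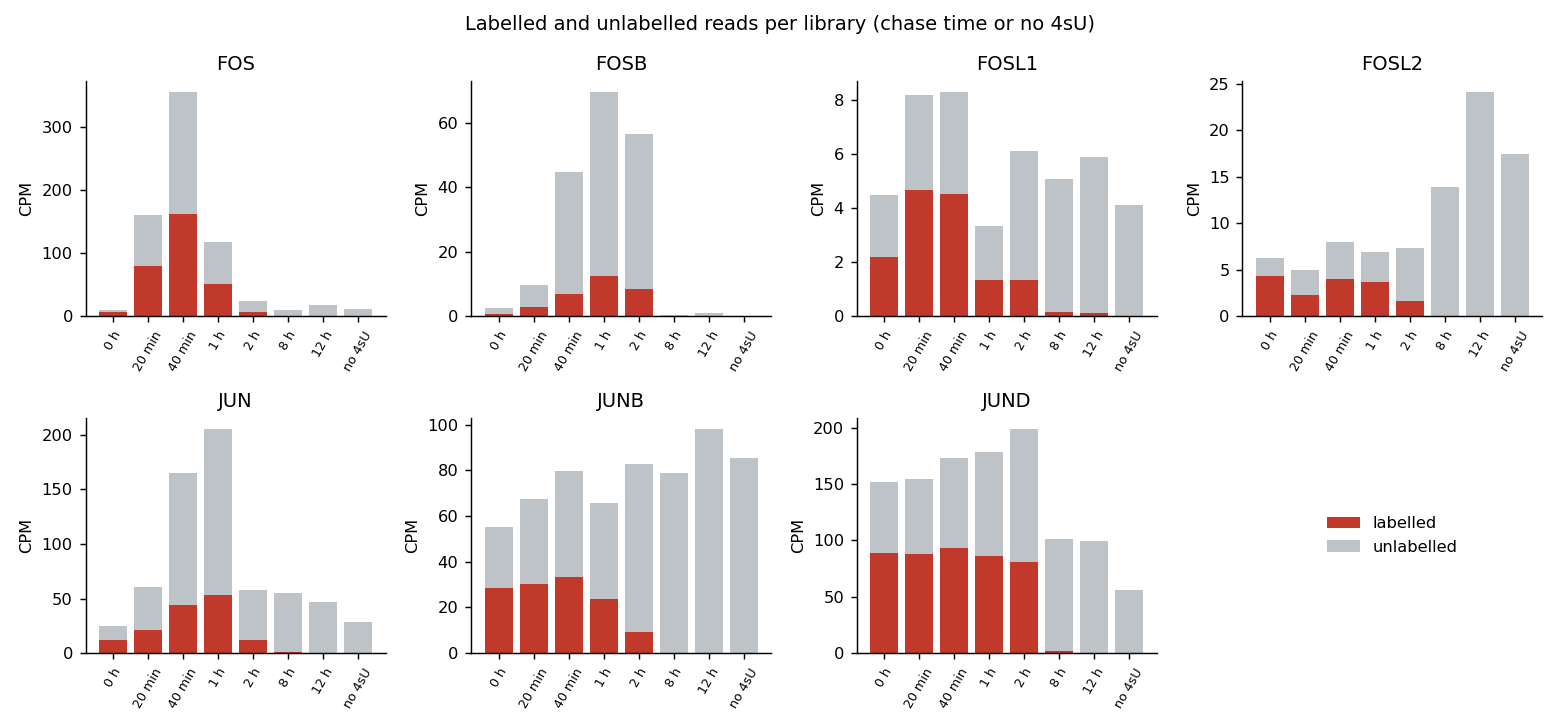
Labelled (red) and unlabelled (grey) reads of each gene per library, stacked, in CPM on a linear axis of its own per gene; each bar is 1 library. The red part of FOS is 7.35 CPM at 0 h and 162 CPM at 40 min, and that of JUNB is 28.6 CPM at 0 h and 9.24 CPM at 2 h.

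JUNB and JUND carried label in a different order. Labelled JUNB reads stood at 28.6 CPM at 0 h, 30.3 after 20 min, 33.3 after 40 min, 23.5 after 1 h, 9.24 after 2 h and 0.267 after 8 h, and none was counted at 12 h among 814 reads, which allows a share of up to 0.369%. Labelled JUND reads stood at 88.5 CPM at 0 h, 87.8 after 20 min, 93.6 after 40 min, 86.5 after 1 h, 80.9 after 2 h, 1.69 after 8 h and 0.241 after 12 h. The labelled level of JUNB at 2 h was thus at 0.323 of 0 h (0.249 to 0.416), while that of JUND was at 0.914 (0.825 to 1.01). These are net levels, since labelled reads may also have been gained after the wash. Labelled JUND was then 47.8-fold lower at 8 h than at 2 h (30.4 to 79.9). FOSL2 was like JUNB, with 4.36 labelled CPM at 0 h and 1.67 at 2 h, a ratio of 0.383 (0.196 to 0.712). FOSL2 and JUNB were the 2 of 7 members whose labelled level at 2 h was past 2-fold lower than at 0 h, where 5.67% of genes were, and at 8 h all 7 were, where 83.5% were.

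Unlabelled JUNB was higher in each later library than at 0 h. It stood at 26.6 CPM at 0 h, 37.0 after 20 min, 46.2 after 40 min, 42.1 after 1 h, 73.4 after 2 h, 78.7 after 8 h and 98.1 after 12 h. The unlabelled level at 2 h was 2.75-fold that of 0 h (2.37 to 3.21), although the total was only 1.5-fold (1.33 to 1.68). Past 2-fold in the unlabelled level at 2 h were 5 of 6 members, FOS, FOSB, FOSL2, JUN and JUNB, where 11.0% of genes were. JUND stood at 1.86-fold (1.67 to 2.06).

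At 2 h the labelled share set JUND apart from the other members. It was 40.7% in JUND (38.4 to 43.0), 30.5% in FOS (24.4 to 37.2), 22.7% in FOSL2 (13.3 to 34.7), 21.8% in FOSL1 (11.8 to 35.0), 20.8% in JUN (17.4 to 24.5), 14.8% in FOSB (11.8 to 18.2) and 11.2% in JUNB (9.01 to 13.7), against a median of 33.2% over genes. JUND stood above 72.4% of genes and JUNB above 4.87%. The JUND interval lay above those of the other 6 members. Among these 6 the intervals of neighbours in this order overlapped, while FOS lay above FOSB and JUNB, and JUN above JUNB. At 8 h the share was 3.51% in FOSL1 (0.428 to 12.1), 1.67% in JUND (1.01 to 2.60), 1.46% in JUN (0.671 to 2.76), 0.820% in FOS (0.0208 to 4.48) and 0.339% in JUNB (0.0699 to 0.986), against a median of 5.83%. No labelled read was left in FOSL2 at 8 h, which allows up to 1.92% of its 156 reads, and for FOSB, with 6 reads, the same count allows up to 50.0%.

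In JUN and FOSB the share was already low while the level was high. JUN had 50.2% at 0 h, 35.5% after 20 min, 26.6% after 40 min, 25.9% after 1 h and 20.8% after 2 h, and FOSB had 27.3%, 31.8%, 15.3%, 18.2% and 14.8% at the same times. FOS had 71.1% at 0 h, 50.1% after 20 min, 45.7% after 40 min, 42.7% after 1 h and 30.5% after 2 h. The share of FOS at its peak was thus close to the median of genes, 43.5% at 40 min, while the share of FOSB at its own peak, 18.2% at 1 h, stood above 10.7% of genes. JUND had 58.2% at 0 h, 56.8% after 20 min, 54.2% after 40 min, 48.5% after 1 h and 40.7% after 2 h.

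**Figure D4:**
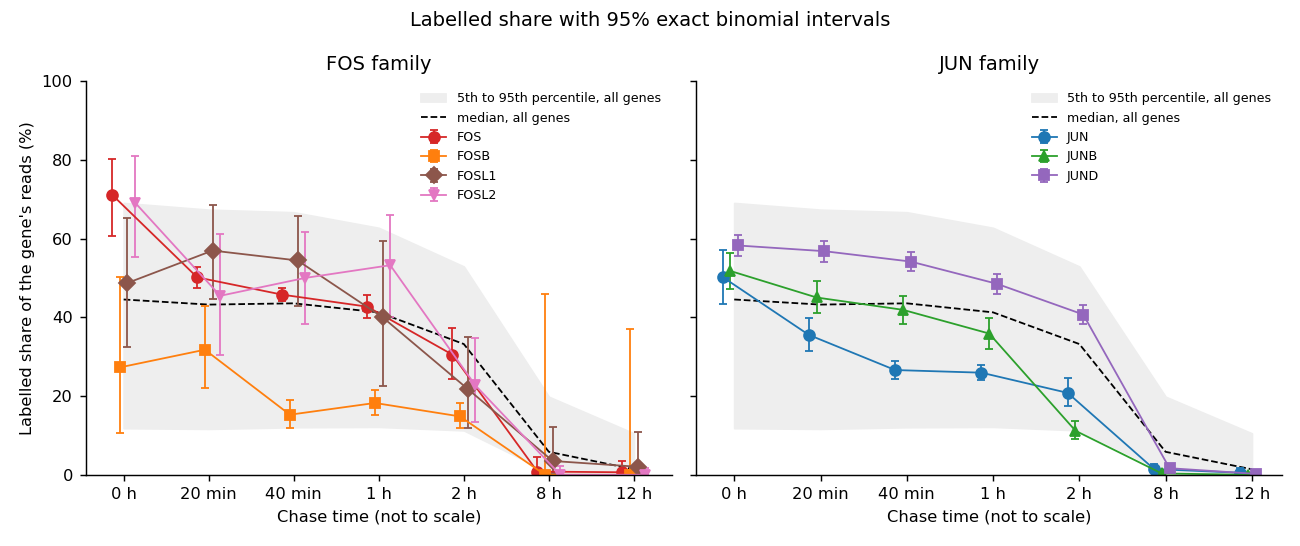
Labelled share of each gene's reads (percent) by chase time, with 95% exact (Clopper-Pearson) intervals; the dashed line is the median and the grey band the 5th to 95th percentile of 9402 genes. FOS starts at 71.1% above the band, JUND stays above the median until 2 h, and JUNB drops to 11.2% at 2 h.

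Whether the share declined was tested in edgeR (quasi-likelihood test on hours of chase, the gene's own total as offset, Benjamini-Hochberg adjustment over 9402 genes). It was called for 7 of 7 members, where 95.3% of genes were called, so the call does not set the members apart. The slope was -0.97 ± 0.05 log2 units per hour in JUNB (SE, adjusted p = 1.3e-13), -0.85 ± 0.07 in FOSL2 (1.4e-11), -0.65 ± 0.04 in JUND (2.5e-13), -0.63 ± 0.05 in FOS (3.4e-11), -0.58 ± 0.04 in JUN (4.1e-12), -0.47 ± 0.06 in FOSL1 (1.1e-07) and -0.44 ± 0.16 in FOSB (0.0109). FOSB was not called on the libraries of 0 to 2 h alone (adjusted p = 0.125). With the effective library size in place of the gene's total as offset, FOS was the steepest at -1.16 ± 0.20 (2.4e-05), ahead of JUNB at -0.90 ± 0.06 (6.0e-10), so the order of the slopes depends on the offset.

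As a half-life of the share, by a binomial fit of an exponential decay over background, JUNB had 1.08 ± 0.16 h and FOSL2 1.22 ± 0.22 h (± SE). Of 9402 genes, 0.277% and 0.574% had a shorter one, and the median gene had 2.83 h. JUN had 1.73 ± 0.30 h, FOS 1.88 ± 0.28 h, FOSL1 2.03 ± 0.41 h, JUND 2.19 ± 0.34 h and FOSB 2.91 ± 1.62 h. Of the 7, 6 were below the median gene, and neighbours in this order differed by less than the sum of their standard errors. A single exponential described JUND poorly, with a scatter 19.4 times that of counting: its half-life was 3.71 h on 0 to 2 h alone and 1.72 h on 1 to 12 h. JUNB had 0.723 h on 1 to 12 h, and FOSB between 1.51 h (without the 2 h library) and 4.27 h (without the 20 min library), with 1.93 h without the 40 min library. This share is of the gene's own reads, so unlabelled RNA made in the chase lowers it as decay does.

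Net loss of labelled reads between neighbouring libraries gives a second view that new RNA without label does not enter. Labelled FOS was 3.20-fold lower at 1 h than at 40 min (2.89 to 3.57), a halving every 11.9 min (10.9 to 13.1), and 7.0-fold lower at 2 h than at 1 h (5.39 to 9.22), every 21.4 min (18.7 to 24.7). Labelled FOSL1 was 3.38-fold lower at 1 h than at 40 min (1.75 to 7.05), from 12 and 43 reads. Labelled JUN was 4.39-fold lower at 2 h than at 1 h (3.56 to 5.46), a halving every 28.1 min (24.5 to 32.8). For JUNB the same step was 2.55-fold (1.97 to 3.32), every 44.5 min (34.6 to 61.5), and for FOSL2 2.19-fold (1.16 to 4.35). These 4 of 7 members were past 2-fold lower at 2 h than at 1 h in labelled reads, where 3.46% of genes were. Labelled FOSB was 1.52-fold lower (1.12 to 2.06) and labelled JUND 1.07-fold (0.965 to 1.18). These halving times of labelled FOS and JUN are shorter than the half-lives of their share. In total reads, FOS alone of 6 members was past 2-fold lower at 1 h than at 40 min (0.0538% of genes), FOS and JUN at 2 h than at 1 h (0.204%), and FOS and FOSB at 8 h than at 2 h (1.6%).

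Members were also compared in shape, by Pearson's r of log2(CPM + 1) over the 7 chase libraries, as a description of points that share libraries. FOS and JUN had r = 0.79, FOS and FOSB 0.68, FOSB and JUN 0.72, and FOSB and JUND 0.91. FOSL2 went with JUNB (0.77) and against JUND (-0.81). The candidates were 1813 genes outside the family with a chase mean of at least 50 reads and a range of at least 1 log2 unit. Most like FOS were DUSP1 (r = 0.97), a phosphatase that switches MAP kinases off, and RGS1 (0.89), a brake on G-protein signals. Then came EGR1 (0.85), an immediate-early zinc-finger factor, DNAJB9 (0.85), a chaperone of the endoplasmic reticulum, and NR4A2 (0.83), an immediate-early nuclear receptor. DUSP1, RGS1 and NR4A2 reached the minimum of reads only through their libraries of 20 min to 2 h. For these genes the minimum is thus not independent of the shape compared. Among those most like JUN were TRIB1 (0.94), a pseudokinase, RGS1 (0.93), CITED2 (0.92), a co-regulator that binds CBP and p300, and SGK1 (0.87), a serum-induced kinase.

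DUSP1 matched the time course of FOS closely. It had 1.72 CPM at 0 h, 21.3 after 20 min, 80.1 after 40 min, 47.6 after 1 h, 3.23 after 2 h, 1.43 after 8 h and 2.17 after 12 h, against 0.343 CPM without 4sU. TRIB1 peaked with JUN, with 11.4 CPM at 0 h, 44.9 at 40 min, 86.5 at 1 h and 32.5 at 2 h, against 37.4 CPM without 4sU. SGK1 had 132.5 CPM at 1 h and 3.77 CPM without 4sU, and CITED2 had 106 CPM at 1 h and 189 CPM without 4sU, so genes alike over the chase stood on different sides of the cells without 4sU.

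Among the genes that work with AP-1, few shared its early peak. Of 15 basic leucine zipper partners and competitors, 14 were tested and 10 changed over the chase (edgeR shape test), where 48.4% of all genes did. In the linear trend 4 rose, where 27.4% of genes did, and 4 fell, where 23.9% did. At 40 min against 0 h, 1 of 12 was past 2-fold, where 0.258% of genes were. This was ATF3, a stress-induced JUN partner, with 21.8 CPM at 40 min against 5.85 CPM at 0 h, 3.72-fold (2.73 to 5.16). ATF3 reached the minimum of reads only through its libraries of 40 min, 1 h and 2 h, with 208, 406 and 215 reads. The next highest was MAFF at 1.18-fold (0.842 to 1.65), and the lowest were NFE2 at 0.857 and BACH1 at 0.893. Their median was 0.01 on the log2 scale, against 1.64 for the 6 AP-1 members in this count and 0.00 for all genes.

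At 40 min the upstream and downstream lists stood near 0 h, as most genes did. Of 24 MAP kinase components and factors on the FOS promoter, 23 were tested and 8 changed, where 48.4% of all genes did. None of 21 was past 2-fold at 40 min, where 0.258% of genes were. The highest were MAP2K3 (1.17-fold) and MAP2K4 (1.16-fold), and MAPK3 was among the lowest (0.855). Of 8 proteins that bind AU-rich elements, 7 changed, where 48.4% of all genes did. None of the 8 was past 2-fold at 40 min, where 0.258% of genes were. Their highest was ZFP36, which promotes decay of such mRNAs, at 1.35-fold (1.15 to 1.58), followed by TIAL1 (1.13), and their lowest HNRNPD (0.957) and KHSRP (0.958).

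Of 14 genes with known AP-1 sites, 13 had a read, 11 were tested and 9 changed, where 48.4% of all genes did. In the linear trend 7 rose, where 27.4% of genes did, and none fell, where 23.9% did. CXCL8, the neutrophil chemokine IL-8, was the 1 of 11 past 2-fold at 40 min, where 0.258% of genes were. It had 49.8 CPM at 40 min against 18.8 CPM at 0 h, 2.64-fold (2.21 to 3.18). CXCL8 stood at 11.0 CPM at 2 h and 53.1 CPM at 12 h. PLAU followed at 1.17-fold, and the lowest were CCND1 (0.771) and HMOX1 (0.819).

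By the median fold at 40 min, the EGR and NR4A factors, immediate-early transcription factors of other families, were the list most like the AP-1 genes. Only 2 of the 7 had enough reads for that fold. For the shape test 4 of the 7 had enough reads and all 4 changed, where 48.4% of all genes did. These 2, NR4A2 and EGR1, were both past 2-fold at 40 min, where 0.258% of genes were. NR4A2 reached the minimum of reads only through its libraries of 20 min to 2 h. NR4A2 had 53.4 CPM at 40 min against 3.21 CPM at 0 h, 16.6-fold (11.4 to 25.3), and EGR1 had 41.7 CPM at 40 min against 10.6 CPM at 0 h, 3.95-fold (3.14 to 5.01). EGR3, whose mean of 48.9 reads missed the minimum for the fold, had 10.9 CPM at 40 min against 2.98 CPM at 0 h, 3.65-fold (2.36 to 5.85). EGR3 is named here after its values were seen. EGR1 had 78.5 CPM without 4sU, above all of its chase libraries, which none of FOS, FOSB and JUN had.

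**Figure D5:**
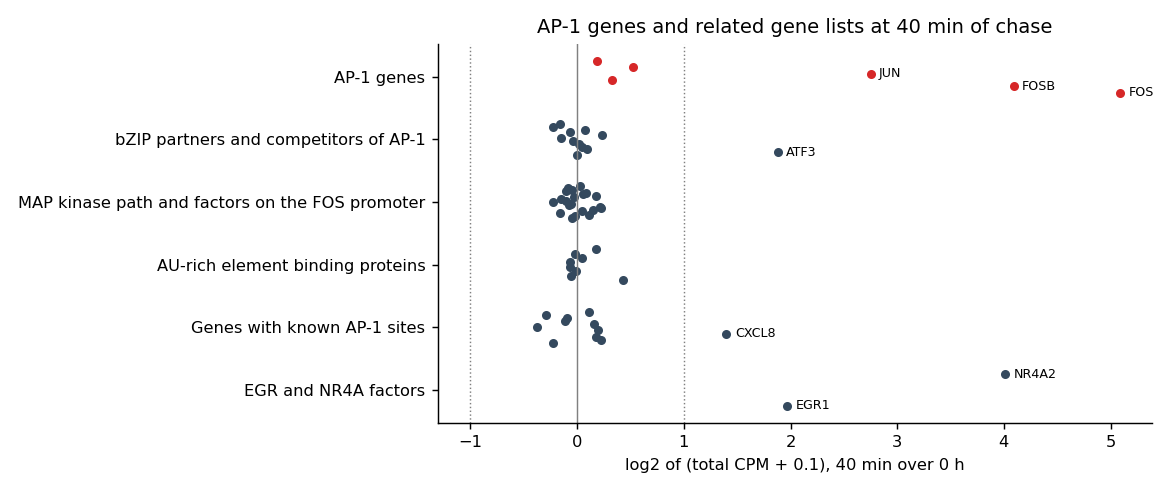
Each point is a gene: log2 of total CPM + 0.1 at 40 min over 0 h, for AP-1 genes (red) and 5 lists of related genes (dark), with dotted lines at 2-fold and genes past it named. FOS, FOSB and JUN lie between 6.75-fold and 34.3-fold, and of the related genes with a mean of at least 50 reads ATF3, CXCL8, NR4A2 and EGR1 pass 2-fold.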

How the data were processed

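RNA of THP-1 cells in 8 conditions, 1 library each, was measured by SLAM-seq with QuantSeq 3′ FWD libraries. Per the file headers and the values, the authors deposited raw counts per 3′ UTR segment of a transcript: all reads, and converted reads. Builds hg19 and dm3, with Trim Galore 0.6.5 and bcl2fastq 2.17.1.14, come from the submitters' processing notes. The fly build belongs to Drosophila S2 RNA, which per the labels' protocols was added as spike-in. No spike-in value was used here. Neither the aligner and counter nor the conversion threshold behind a labelled read is stated, so these are not given in sources used here. The sample titles give 20 and 40 min, which the protocol gives as rounded hours.

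From 64545 segments, GENCODE 29 named 48045 of 56570 transcripts (84.9%), leaving 5.65% of counts unnamed. Left out were 3056 segments on other contigs and 85 genes with counts identical to those of another gene. The authors' counting is not known to resolve overlapping transcripts; 5 further FOSB rows held the same counts as the one used, and another FOSB segment had 2 reads without 4sU.

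Tests used edgeR 4.0.16 (R 4.3.3) on the counts as deposited, with TMM factors: a line in hours (5 residual degrees of freedom) or a natural spline of log2(hours + 1) with 3 degrees of freedom (3 residual), for genes with a mean total of at least 20. The label test needed a mean total of 50 or more and 20 or more labelled reads in all. Calls were made at an adjusted p under 0.05. Folds are ratios of CPM, and past 2-fold was decided on CPM + 0.1. Ratio intervals are exact binomial. Half-life background was the share without 4sU with 100 prior reads, and standard errors were widened by the Pearson dispersion. DESeq2 1.42.0 was an alternative. The tests were checked on simulated counts. Since no reads carry molecular identifiers, intervals and floors (3 counts) cover counting error only, and p-values measure the spread between these libraries, which may be technical.

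The members and gene lists were chosen with earlier results of these data known. Named genes are the 7 members, in each list the 2 highest and 2 lowest at 40 min over 0 h with a mean of at least 50 reads, and the 5 genes most like FOS and most like JUN. Of the genes this rule names, 2 are not reported here.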

Additional observations from a re-analysis of the deposited data

How the results depend on the processing

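No paired analysis was possible because each condition has 1 library and the labels give no replicate numbers that groups share. Leaving out 1 library at a time, between 2 and 5 members had a called trend of the total, against 4. Members past 2-fold over 0 h at 8 h were 0 with TMM-scaled CPM and 0 with DESeq2 size factors, against 2 on plain CPM. FOSB, the 1 member past 2-fold lower at 12 h, was not past it with all segments summed (0 members) or a pseudocount of 1 CPM (0 members). Genes with a called slope of the labelled share, in either direction, numbered 3038 on 0 to 2 h alone, against 8964. Against the library without 4sU, an alternative added after the data were seen, 1 member (FOSL2) was past 2-fold lower at 20 min, at 40 min and at 1 h, against 0 over 0 h, and 4 were past 2-fold higher at each of these times, against 3, JUND being the one added. JUNB, above 0 h in every later library, was below the library without 4sU from 20 min to 8 h. No called result reversed. Other summary values stayed on the same side or within 1.5 times under the alternatives run. Depth limits FOSB at 8 and 12 h (6 and 8 reads), FOSL1 throughout and the library without 4sU, which is the shallowest.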
